A study of Homo sapiens with 40 samples.

Results

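The 9 genes described here encode products that luminal cells of the breast carry on their surface, fold in the secretory pathway, secrete or use as markers of luminal identity: MUC1, CD24, AGR2, AGR3, PIP, AZGP1, SCGB2A2, ANKRD30A and CRABP2. They were chosen by name and not by a rule on their values, though with earlier results of these data known. They are 9 of the 60279 genes listed in each count table, and were followed in 33 of 40 deposited single cells. All cells came from T47D, a human breast cancer cell line with luminal, hormone receptor positive character, grown as 1 untreated culture at passage 10 and sorted by flow cytometry on EpCAM and CD49f. The groups differ in how the mRNA of a cell was copied, namely with Genome & Transcriptome sequencing (G&T, 13 cells), the Takara SMART-seq HT kit (Takara, 13 cells) or the NEBNext Single Cell/Low Input kit (NEB, 14 cells). The quality thresholds of the study left 11 cells in each group. SMART-Seq3 cells of the study are not analysed here. The protocols were run on separate plates and sequenced separately, and a difference between protocols cannot be told apart from one between runs. A protocol therefore counted as 1 sample, its cells were not taken as replicates of it, and no test was made between protocols. The question put to these genes was how fully, and how evenly between cells, each protocol recovered the transcripts of a luminal cell.

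Luminal cells line the ducts and lobules of the breast and export proteins across their apical surface. The exported proteins are folded in the endoplasmic reticulum, where enzymes of the protein disulfide isomerase family form their disulfide bonds, and many receive O-linked sugars in the Golgi apparatus before they reach the surface or the lumen. Genes of this group are used as markers of luminal breast cancer, and several of them are regulated by steroid hormones.

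Levels are given as CPM, the reads of a gene per 1e+06 reads on genes, either in a single cell or pooled over the 11 cells of a protocol. The cells held 658154 to 1166633 reads on genes in G&T, 818512 to 1287911 in Takara and 624772 to 963816 in NEB, with medians of 11253, 10983 and 5161 genes detected. A gene was called detected with at least 1 read. The reads carry no molecular identifiers, so intervals and limits cover counting error only. Of 10 luminal markers, 9 had reads in every protocol, and their summed level was 3982 to 15853 CPM per cell in G&T, 10129 to 26998 in Takara and 1993 to 7331 in NEB. The tenth, XBP1, a transcription factor of secretory cells, was listed at 0 in all 33 cells, although its exons overlap no other annotated gene and all of their 64-base windows are unique in the genome. A 0 in these tables was therefore given as a count of 0 and not read as absence of the transcript. Among 7 basal markers, 5 had reads in G&T and in Takara and 1 in NEB, with at most 142 CPM summed in a cell, most of it ACTA2 in Takara. Among the others KRT5 had 1 read and KRT14 2 reads, all in G&T, TP63 had 3 in G&T and 1 in Takara, KRT17 had 19 and OXTR 5 in Takara, and MYLK had reads in 8 G&T cells (82 reads), 10 Takara cells (69) and 2 NEB cells (25). The immune markers CD3E, CD68, LYZ and CD14 had 0, endothelial markers summed to at most 25.5 CPM in a cell and stromal markers, mostly COL1A1, to at most 50.04 CPM.

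Of the 9 genes, 7 had reads and 2, SCGB2A2 and ANKRD30A, had none in any cell. A G&T cell contained reads of 6.18 ± 0.751 of the 9 genes (mean ± SD, n = 11 cells, range 5 to 7), a Takara cell of 6.09 ± 0.302 (6 to 7) and an NEB cell of 4.55 ± 0.934 (3 to 6). Thinning every cell to 624772 reads, the smallest number among the cells, gave 6.11, 6.09 and 4.55. The fewest were found in NEB cells C1 and C2, where only AGR2, AGR3 and CD24 had reads. Summed over the 9 genes, the level per cell was 4814 to 15651 CPM in G&T, 2805 to 6599 in Takara and 817 to 6974 in NEB. AGR2 supplied most of it, with a median of 78.6% of these reads in a G&T cell, 67.6% in a Takara cell and 62.9% in an NEB cell.

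**Figure D1:**
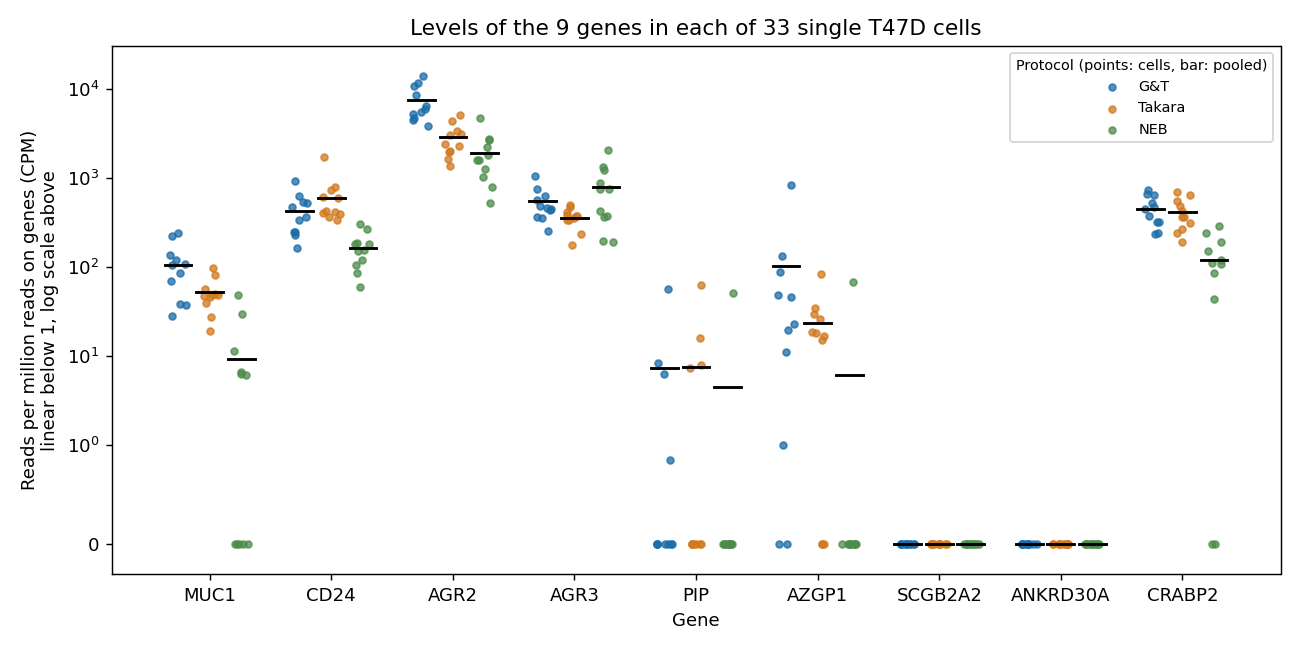
Levels of the 9 genes in CPM (reads per 1e+06 reads on genes, y axis, log scale above 1 and linear below it), with 1 point for each of 11 cells per protocol and a black bar at the pooled level of the protocol. AGR2 has the highest pooled level in each protocol, PIP and AZGP1 have points at 0 in each protocol, and SCGB2A2 and ANKRD30A are at 0 in all 33 cells.

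MUC1 encodes mucin-1, a transmembrane mucin that covers the apical surface of luminal cells (ENSG00000185499; GRCh38 chromosome 1, 155185824 to 155192916, minus strand). The part of it that stands out from the membrane is built from a tandem repeat that carries the O-linked sugars. The repeat unit is shown since it bears on what the read counts can hold. In the orientation of the transcript, the most frequent unit of 60 bases of the gene in GRCh38, printed 5′ to 3′ with no base marked, reads

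MUC1 repeat unit: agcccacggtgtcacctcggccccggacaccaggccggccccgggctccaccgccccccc

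It occurs 17 times without a mismatch and 47 times with at most 6 mismatches, between positions 155188530 and 155192000 of chromosome 1, and 81.7% of its bases are G or C. Of the 3471 bases of this stretch, 225 (6.48%) lie in exons of the gene in GENCODE release 44. The count tables hold uniquely mapped reads on annotated exons, and do not show where along the gene the reads lie. Over all MUC1 exons of that release 98.2% of the 64-base windows are unique in the genome.

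MUC1 was found in every G&T cell, with 23 to 218 reads and a median of 79, and in every Takara cell, with 17 to 111 reads and a median of 52. NEB cells had 0 to 30 reads with a median of 5, and 6 of 11 cells had any (54.5%, exact binomial 95% interval 23.4 to 83.3%). The highest NEB cell, G2, held 40.5% of all NEB reads of the gene. In CPM the cells ranged from 28.5 to 241 in G&T (median 106), from 19.2 to 98.5 in Takara (median 48.3) and from 0 to 48.0 in NEB (median 6.23), so that the ranges of all pairs of protocols overlap. Pooled, MUC1 reached 106 CPM in G&T (exact Poisson 95% interval 99.3 to 113), 52.9 in Takara (48.8 to 57.3) and 9.28 in NEB (7.29 to 11.7). Per cell this corresponds to 109 ± 70.7 CPM (SD, n = 11 cells) with G&T, 51.1 ± 22.2 with Takara and 9.86 ± 15.4 with NEB. MUC1 was thus 10.4-fold lower in NEB than in G&T and 5.24-fold lower than in Takara, on the scale of pooled CPM + 1 used for all ratios below. Takara against G&T gave a log2 ratio of -0.99, just inside the 2-fold limit, and leaving out single cells moved it between -1.12 and -0.79. In 7 of the 22 cases it then passed the limit.

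CD24 encodes a small mucin-like protein held at the cell surface by a glycosylphosphatidylinositol (GPI) anchor (ENSG00000272398; GRCh38 chromosome 6, 106969831 to 106975627, minus strand). It was detected in all 33 cells. CD24 has processed copies elsewhere in the genome, and 64.4% of the 64-base windows of its exons are unique. A coding stretch of its exon is shown beside the matching stretch of CD24P4, with the base that differs in capitals (GRCh38, CD24 at chr6:106971664-106971834 and CD24P4 at chrY:18992470-18992640, minus strand of both).

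CD24: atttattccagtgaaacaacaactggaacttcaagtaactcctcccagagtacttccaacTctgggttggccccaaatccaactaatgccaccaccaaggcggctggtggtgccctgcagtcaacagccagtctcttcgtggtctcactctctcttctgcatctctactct

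CD24P4: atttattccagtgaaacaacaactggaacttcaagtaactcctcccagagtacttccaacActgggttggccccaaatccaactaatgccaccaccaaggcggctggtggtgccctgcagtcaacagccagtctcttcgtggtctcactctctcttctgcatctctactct

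The stretches of 171 bases differ at 1 position. A read that lies wholly within the shared bases on either side of it matches both, and a counter of uniquely mapped reads would discard it. The reads were paired-end, and how many CD24 reads were lost in this way was not measured. The CD24 levels may therefore be lower limits.

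CD24 ranged from 128 to 896 reads per cell in G&T (median 292), from 354 to 1643 in Takara (median 528) and from 40 to 239 in NEB (median 107). On the CPM scale the G&T cells lay between 162 and 915, the Takara cells between 334 and 1725 and the NEB cells between 59.0 and 301. Every NEB cell thus stood below every Takara cell, the only case among the 7 genes with reads in which the cells of a pair of protocols did not overlap. The pooled level was 419 CPM in G&T (407 to 433), 592 in Takara (578 to 606) and 164 in NEB (155 to 173). CD24 was 3.59-fold lower in NEB than in Takara and 2.55-fold lower than in G&T, and Takara over G&T was 1.41-fold, under the limit. Takara cell E2 held 23.7% of the Takara reads of the gene, and without it the log2 ratio of Takara over G&T was 0.23 instead of 0.50.

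AGR2 and AGR3 encode members of the protein disulfide isomerase family that reside in the endoplasmic reticulum. AGR2 is required for the folding of intestinal mucins, and both are raised in estrogen receptor positive breast cancer. The genes are neighbours on the minus strand of chromosome 7 (GRCh38; AGR2, ENSG00000106541, 16791811 to 16833433; AGR3, ENSG00000173467, 16859412 to 16881987), 25978 bases apart, and neither shares exon bases with another gene or has a window that is not unique. The 250 bases before the RefSeq start of each (GRCh38.p14, minus strand, AGR2 at chr7:16805000-16805249 and AGR3 at chr7:16881984-16882233) are shown because these genes went together across cells, as given further on. The distance of 25978 bases is between GENCODE ends. The AGR2 window lies inside the GENCODE span of AGR2 and not at the end that the distance was taken from. Capitals mark matches to any of 5 motifs searched on both strands, and no 2 matches overlap. The motifs were TATAAA of the TATA box, the GATA factor motif AGATAA, the nuclear receptor half-site motif AGGTCA, the forkhead motif TGTTTAC and, as a motif of endoplasmic reticulum stress factors, TGACGTG.

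AGR2: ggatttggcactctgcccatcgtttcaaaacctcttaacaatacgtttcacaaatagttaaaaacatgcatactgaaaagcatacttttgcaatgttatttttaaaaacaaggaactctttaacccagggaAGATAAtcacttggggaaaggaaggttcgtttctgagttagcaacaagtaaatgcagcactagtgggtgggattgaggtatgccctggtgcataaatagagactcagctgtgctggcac

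AGR3: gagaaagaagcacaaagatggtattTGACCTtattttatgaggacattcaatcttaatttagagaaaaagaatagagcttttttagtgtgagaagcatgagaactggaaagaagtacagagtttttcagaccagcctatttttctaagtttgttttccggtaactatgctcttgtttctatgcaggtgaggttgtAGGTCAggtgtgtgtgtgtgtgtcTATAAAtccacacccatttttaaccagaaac

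The AGR2 window held 1 AGATAA, from 119 to 114 bases before the start, a motif found in 9.17% of 35116 windows of this length before RefSeq starts. The AGR3 window held TATAAA from 31 to 26 bases before the start, and AGGTCA on both strands. TATAAA was found in 10.7% of windows and AGGTCA in 12.1%. All these shares count windows with the motif at any position on either strand. The share of windows with AGGTCA on both strands was not counted. TGTTTAC (2.98% of windows) and TGACGTG (1.68%) were in neither, and no motif was in both. Both windows are poor in G and C, with 40.4% and 36.4% against a median of 58.0%. Promoters were on hand for 8 of the 9 genes.

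AGR2 was the gene of this group with the most reads in every protocol. It had 2918 to 12520 reads per cell in G&T (median 5201), 1106 to 5706 in Takara (median 2944) and 336 to 3141 in NEB (median 1202). In CPM the cells ranged from 3836 to 13864 in G&T, from 1351 to 5065 in Takara and from 514 to 4631 in NEB, with overlap between all protocols. The pooled level was 7399 CPM in G&T (7344 to 7454), 2830.4 in Takara (2800.0 to 2861) and 1876 in NEB (1846 to 1906), against 7310 ± 3364 (SD, n = 11 cells), 2762 ± 1142 and 1886 ± 1156 per cell. AGR2 was 2.61-fold lower in Takara than in G&T and 3.94-fold lower in NEB than in G&T, and no single cell left out ended either call. Relative to ERCC spike-in reads the log2 ratio of Takara over G&T was -0.39, under the limit, where the median of all genes was 0.93. On that scale NEB over G&T was -4.74. NEB was 1.51-fold below Takara, under the limit.

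AGR3 had 167 to 1227 reads per cell in G&T (median 359), 188 to 596 in Takara (median 374) and 119 to 1388 in NEB (median 501). In CPM the cells ranged from 254 to 1052 in G&T, from 176 to 499 in Takara and from 190.5 to 2047 in NEB. The pooled level was 544 CPM in G&T (530 to 559), 358 in Takara (347 to 369) and 788 in NEB (769 to 808). AGR3 was the only gene of the group with its highest pooled level in NEB, where it was 2.20-fold above Takara (log2 ratio 1.14) and 1.45-fold above G&T. The call against Takara rested on NEB cell B1, which held 22.1% of the NEB reads, since the log2 ratio without it was 0.91. It also depended on the scale. Relative to ERCC spike-in reads the log2 ratio of AGR3 was -2.62 in NEB over Takara, where the median of all genes was -3.85.

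The ratio of AGR2 to AGR3 reads within a cell separated NEB from G&T further than the level of either gene did. It ranged from 7.44 (A1) to 20.5 (E2) in G&T with a median of 14.3, from 3.84 to 15.3 in Takara with a median of 8.04, and from 1.02 to 7.36 in NEB with a median of 2.60. The NEB and G&T ranges did not overlap, by a narrow margin between the highest NEB cell and the lowest G&T cell, and the Takara range overlapped both. How often the ratios of other pairs of genes separate in this way was not counted. Per kilobase of exon, AGR3 lay above AGR2 in 4 NEB cells and in 0 cells of the other protocols. The longest AGR3 transcript has 36.3% G and C and the AGR2 transcript 41.1%.

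Across the cells of a protocol AGR2 and AGR3 went together. Spearman's rho of their CPM was 0.66, 0.41 and 0.55 in the G&T, Takara and NEB cells (n = 11 each), and Pearson's r of log2(CPM + 1) was 0.71, 0.43 and 0.72. Without the 2 cells farthest from the median of AGR2, rho was 0.55, 0.65 and 0.63, and relative to ERCC reads, a divisor that both genes share, it was 0.67, 0.63 and 0.78. These coefficients describe cells of 1 run that also share their CPM denominator. Of the 10 pairs among MUC1, AGR2, AGR3, CRABP2 and CD24, AGR2 with AGR3 was the only pair with a positive rho of CPM in all 3 protocols. AGR2 with CD24 (rho -0.17, -0.70 and -0.44 in G&T, Takara and NEB), AGR3 with CD24 (-0.43, -0.24 and -0.28) and MUC1 with AGR3 (-0.26, -0.37 and -0.51) were negative in all 3, and the other 6 pairs changed sign between protocols. Relative to ERCC reads these negative values did not all remain, with 0.03 for AGR2 with CD24 in NEB, 0.01 to 0.27 for AGR3 with CD24, and 0.25 and 0.24 for MUC1 with AGR3 in G&T and Takara. On that scale AGR2 with AGR3 was also not the only pair positive in all 3 protocols. AGR3 with CD24 was positive in all 3, as was MUC1 with CRABP2 (0.82, 0.25 and 0.34 in G&T, Takara and NEB). So were AGR2 with CRABP2 (0.08, 0.59 and 0.39) and AGR3 with CRABP2 (0.24, 0.34 and 0.18).

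**Figure D2:**
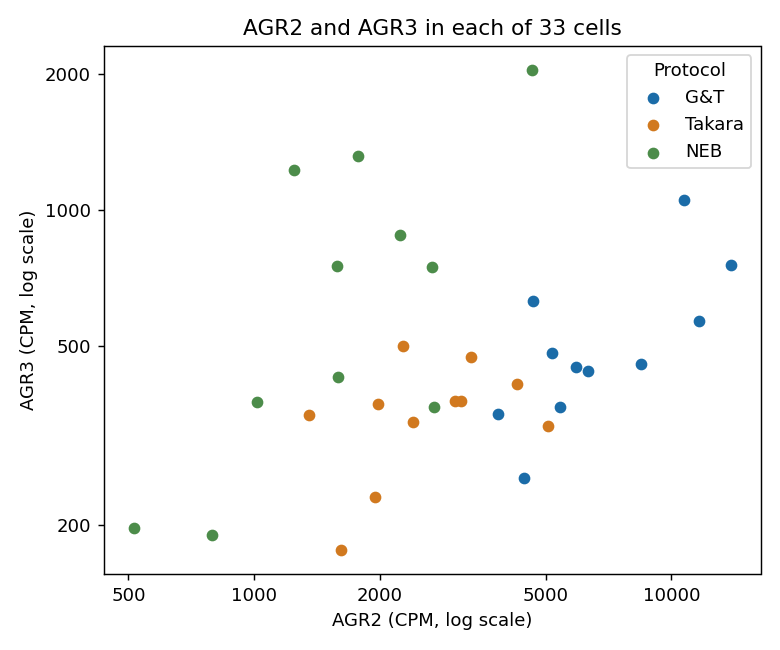
AGR2 (x axis) against AGR3 (y axis) in each of 33 cells, both in CPM on log scales, coloured by protocol. Within each protocol cells with more AGR2 tended to have more AGR3 (Spearman's rho 0.66, 0.41 and 0.55 for G&T, Takara and NEB), and most NEB cells lie to the left of the G&T cells.

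PIP encodes prolactin-induced protein, a small protein secreted by apocrine cells and regulated by androgen (ENSG00000159763; GRCh38 chromosome 7, 143132077 to 143139739, plus strand). It was found in few cells. Of the G&T cells, C1 had 56 reads, E2 8, G1 5 and D2 1, and the other 7 had 0. Of the Takara cells, A1 had 55, A2 17, D1 9 and E1 8, and the other 7 had 0. In NEB, cell E1 had 36 reads and the other 10 cells had 0. Cells with at least 1 read made up 36.4% of G&T and of Takara cells (exact binomial interval 10.9 to 69.2%) and 9.09% of NEB cells (0.23 to 41.3%). The pooled levels of 7.37 CPM in G&T (5.74 to 9.31), 7.60 in Takara (6.10 to 9.35) and 4.51 in NEB (3.16 to 6.25) were thus close, but single cells supplied most of them, with 80.0% of the reads in G&T cell C1, 61.8% in Takara cell A1 and 100% in NEB cell E1. No ratio between protocols passed 2-fold, and leaving out 1 cell was enough to change this. Without G&T cell C1 the log2 ratio of Takara over G&T was 1.70 and that of NEB over G&T 1.06, without Takara cell A1 that of Takara over G&T was -1.02, and without NEB cell E1 no NEB read of the gene was left.

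AZGP1 encodes zinc-alpha-2-glycoprotein, a secreted protein with a fold like that of major histocompatibility class I molecules (ENSG00000160862; GRCh38 chromosome 7, 99966720 to 99976042, minus strand). In G&T 9 of 11 cells had reads (81.8%, exact binomial interval 48.2 to 97.7%). Cell G1 had 652 and A2 100, the other 7 had 1 to 66, and B2 and D1 had 0. In Takara 8 of 11 cells had reads (72.7%, 39.0 to 94.0%), with 106 in G1, 15 to 45 in the other 7 and 0 in A1, A2 and D1. In NEB cell E1 had 49 reads and the other 10 had 0. The pooled level was 102 CPM in G&T (95.9 to 109), 23.6 in Takara (20.9 to 26.6) and 6.15 in NEB (4.55 to 8.12), against 109 ± 242 (SD, n = 11 cells), 22.2 ± 23.7 and 6.24 ± 20.7 per cell. AZGP1 was 4.19-fold lower in Takara and 14.4-fold lower in NEB than in G&T, and 3.45-fold lower in NEB than in Takara. G&T cell G1 held 67.1% of the G&T reads. Without it the G&T level was 36.6 CPM, Takara over G&T had a log2 ratio of -0.61, under the limit, and NEB was 5.26-fold lower than G&T. From the medians of cells, 22.9 CPM in G&T and 18.3 in Takara, that log2 ratio was -0.31, also under the limit. Without NEB cell E1 no NEB read of AZGP1 was left, so the NEB level is that of 1 cell, and both NEB ratios lay further below 0 without it. The pseudogene AZGP1P1 on the same chromosome had 16.0 CPM in G&T and 5.55 in Takara, with no read in NEB, and 94.4% of the AZGP1 windows are unique, so some reads may have been split between them.

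PIP and AZGP1 were found in the same cell in 6 of 33 cells, 4 of them G&T, 1 Takara and 1 NEB. PIP alone was found in 3 cells, all Takara, AZGP1 alone in 12 and neither in 12, of which 10 were NEB cells. All 4 G&T cells with PIP also had AZGP1, whereas 1 of the 4 Takara cells did. Among these G&T cells, C1 had only 1 AZGP1 read and D2 only 1 PIP read. The single NEB cell with reads of either gene, E1, had reads of both. It had 4908 genes detected, within the range of the NEB cells.

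**Figure D3:**
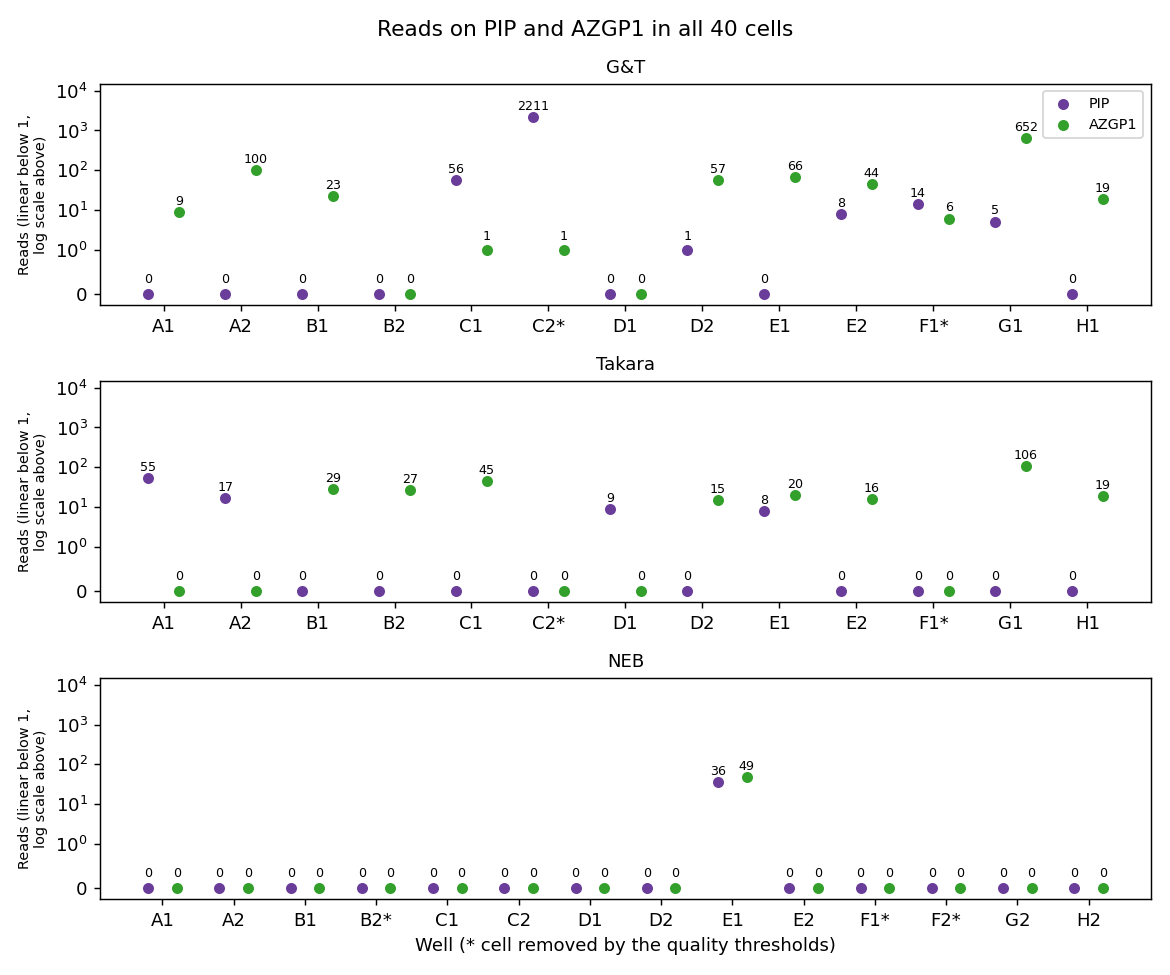
Reads on PIP and AZGP1 (y axis, log scale above 1 and linear below it) in every well of the 3 protocols, all 40 deposited cells included, with the read count printed at each point and removed cells starred. Cell E1 is the only NEB cell with reads of either gene, and the removed G&T cell C2 has 2211 PIP reads.

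SCGB2A2 encodes mammaglobin A, a small secreted protein of the secretoglobin family that is largely restricted to the breast (ENSG00000110484; GRCh38 chromosome 11, 62270158 to 62273160, plus strand). ANKRD30A encodes the breast differentiation antigen NY-BR-1 (ENSG00000148513; GRCh38 chromosome 10, 37125598 to 37232567, plus strand). Both had 0 reads in all 33 cells, and also in the 7 removed cells. At a limit of 3 reads, a count of 0 allows up to 0.316, 0.256 and 0.376 CPM with G&T, Takara and NEB, and 0.103 CPM over the 29190645 reads of all 33 cells. For the share of cells with a read, 0 of 11 allows up to 28.5% (exact binomial). Neither gene shares exon bases with another gene, and 100% of the SCGB2A2 and 93.8% of the ANKRD30A windows are unique. The paralog ANKRD30B had reads in 9 G&T, 8 Takara and 9 NEB cells, at 15.6, 7.60 and 73.2 CPM. SCGB2A1, the paralog of SCGB2A2, had 0 reads. Among all protein-coding genes 24.5% were at 0 in every cell, and among those with at least 95% of their exon bases shared with another gene 88.0%.

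CRABP2 encodes cellular retinoic acid binding protein 2, a cytosolic and nuclear protein that carries retinoic acid to its receptor (ENSG00000143320; GRCh38 chromosome 1, 156699606 to 156705816, minus strand). It had 193 to 631 reads per cell in G&T (median 347) and 204 to 789 in Takara (median 455). In NEB it had 0 reads in C1 and C2 and up to 181 in the others, with a median of 79. In CPM the cells ranged from 236 to 733 in G&T, from 191 to 700.3 in Takara and from 0 to 290 in NEB. The pooled levels in G&T (448 CPM, 434 to 461) and Takara (415 CPM, 404 to 427) lay closer together than the cells of either protocol spread, at 451 ± 173 and 413 ± 166 CPM (SD, n = 11 cells). NEB, with 119 CPM (111 to 127) and 121 ± 91.9 per cell, was 3.74-fold lower than G&T and 3.47-fold lower than Takara, and no single cell left out ended either call.

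Levels of different genes were compared per kilobase of exon, with all annotated exon bases of a gene as its length. The order of close levels depends on that length. The longest transcript of AGR3 has 738 bases against 1153 exon bases, and that of CRABP2 1033 against 1082. With the longest transcript as length, AGR3 and CRABP2 change places in Takara, and AGR2 and AGR3 change places in NEB. Per kilobase of exon, the order in G&T was AGR2 (2677 CPM per kilobase pooled), AGR3 (472), CRABP2 (414), CD24 (135), MUC1 (44.1), AZGP1 (39.6) and PIP (12.7). AGR2 stood above AGR3 in all 11 cells, CRABP2 above CD24 in all 11, and CD24 above MUC1 in all 11. AGR3 stood above CRABP2 in 6 cells, a gap within the spread between cells, as were those among MUC1, AZGP1 and PIP. In Takara the order was AGR2 (1024), CRABP2 (384), AGR3 (310.2), CD24 (191), MUC1 (22.04), PIP (13.1) and AZGP1 (9.15), and only the steps below AGR2 and below CD24 exceeded the larger SD. In NEB AGR3 (684) and AGR2 (679) were level, followed by CRABP2 (110), CD24 (53.02), PIP (7.81), MUC1 (3.87) and AZGP1 (2.38), and only the steps below AGR2 and below CD24 exceeded the larger SD.

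Seen together between protocols, 0 of the 7 genes with reads were at least 2-fold higher in Takara than in G&T and 2 were lower, AGR2 and AZGP1, where 17% and 25.7% of 14658 genes tested passed in these directions. In NEB over G&T 0 were higher and 5 lower, MUC1, CD24, AGR2, AZGP1 and CRABP2, against 19.5% and 48.7% of 14795 genes. In NEB over Takara 1 was higher, AGR3, and 4 were lower, MUC1, CD24, AZGP1 and CRABP2, against 24.3% and 43.7% of 13532 genes. The share lower in NEB was thus above that of all genes in both comparisons, and with 7 genes a difference of 1 or 2 genes from that share is not a result about the group. The median log2 ratio of the 7 genes was -0.60 in Takara over G&T (all genes -0.16), -1.90 in NEB over G&T (-0.92) and -1.79 in NEB over Takara (-0.56). These counts depended on the scale. Relative to ERCC reads 2 genes, PIP and CD24, were higher and 1, AZGP1, lower in Takara over G&T, and all 7 were lower in NEB over either protocol, while the median log2 ratio of all genes moved by 1.09, -2.05 and -3.28. The comparisons share samples, so their ratios are not independent of each other. Every cell of NEB lay below every Takara cell for 1 of the 7 genes, CD24, as for 8.41% of all genes. No other gap of this kind was found. Every Takara cell lay above every G&T cell for 1.26% of all genes and below for 0.669%, every NEB cell lay above every G&T cell for 1.03% and below for 3.31%, and every NEB cell lay above every Takara cell for 1.61%. The gap between the mean levels per cell exceeded the larger of the SDs for AGR2 in Takara over G&T, for MUC1, CD24, AGR2 and CRABP2 in NEB over G&T, and for MUC1, CD24 and CRABP2 in NEB over Takara. For AZGP1 in all comparisons, and for AGR3 in NEB over Takara, it did not.

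**Figure D4:**
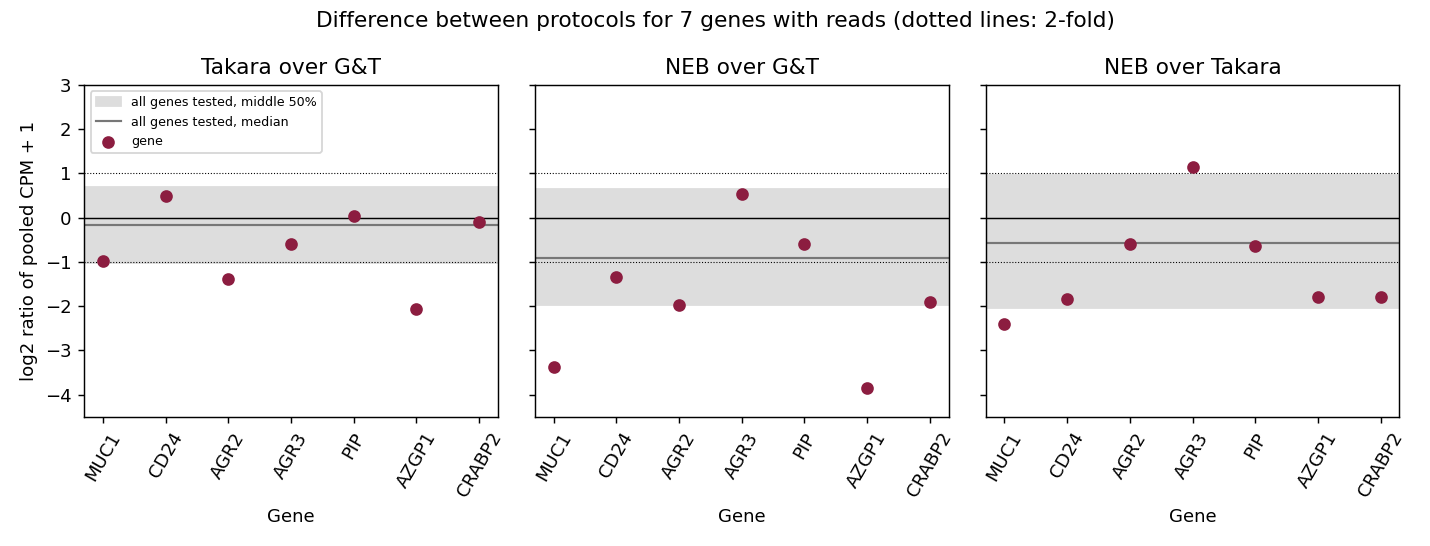
Log2 ratio of pooled CPM + 1 between protocols (y axis) for the 7 genes with reads, with the median (grey line) and the middle 50% (grey band) of all genes tested and dotted lines at 2-fold. MUC1 and AZGP1 lie under the grey band in NEB over G&T, and AGR3 is the only gene above the upper dotted line, in NEB over Takara.

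The NEB ratios of all genes went with the base composition of the transcript. From the quartile of genes lowest in G and C to the highest, the median log2 ratio of NEB over Takara was 0.88, 0.08, -1.10 and -2.24 over 13376 genes, with a Spearman's rho of -0.57 across genes, which are not independent replicates, and -0.53 for NEB over G&T. For Takara over G&T it was 0.11. MUC1 (58.6% G and C) and CRABP2 (55.8%) fall in the highest quartile, AZGP1 (52.8%) in the next, CD24 (45.8%) and PIP (44.8%) in the second, and AGR2 (41.1%) and AGR3 (36.3%) in the lowest. MUC1 (-2.39) and AGR3 (1.14) thus lay near the medians of their quartiles. CD24, at -1.84 in a quartile with a median of 0.08, and AGR2, at -0.59 in a quartile with a median of 0.88, lay further below theirs. PIP (-0.64) and AZGP1 (-1.79) also lay below the medians of their quartiles, and CRABP2 (-1.80) lay above its own. The MUC1 content is that of its longest annotated transcript. Annotated exons hold 6.48% of the MUC1 repeat stretch, so most of that stretch does not enter the MUC1 content. The part of base composition in the ratios of these genes was not tested.

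**Figure D5:**
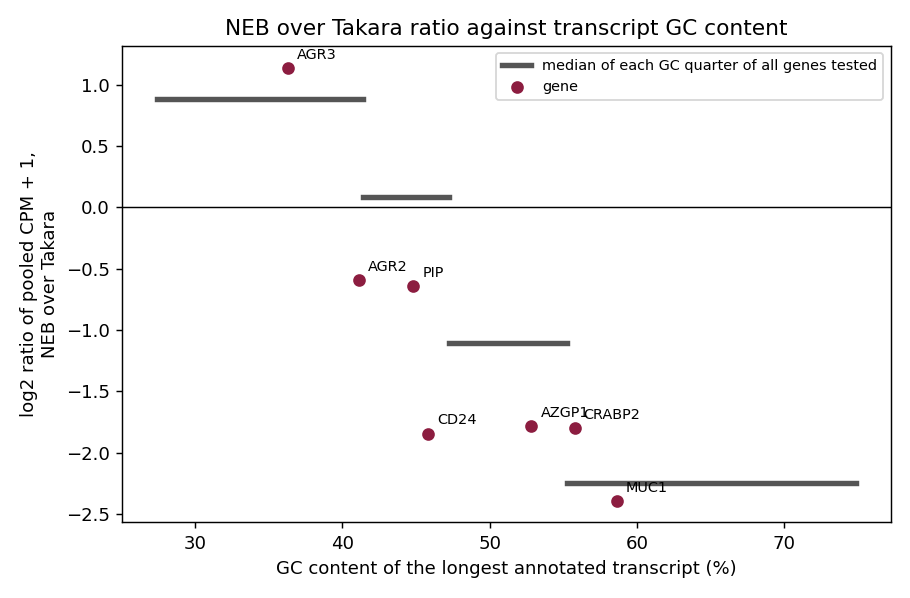
Log2 ratio of pooled CPM + 1 of NEB over Takara (y axis) against the G and C content of the longest annotated transcript (x axis, %) for the 7 genes with reads (points), with the median of all genes tested in each quartile of G and C content (bars). The bars step from 0.88 down to -2.24, AGR3 is the only point above 0, and CD24 and AGR2 lie far under the bar of their quartile.

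Genes of the same families and pathways were examined from lists. Of 19 other disulfide isomerases 17 had reads, led by PDIA3 (552, 803 and 614 CPM in G&T, Takara and NEB), P4HB (303, 1066 and 28.6) and TXNDC12 (84.5, 169 and 487). In Takara over G&T 4 of 15 tested were at least 2-fold higher and 0 lower, with a median log2 ratio of 0.87, where AGR2 had -1.39 and AGR3 -0.60. In NEB over Takara 2 were higher and 6 lower. The shares of all genes, higher and lower, were 17% and 25.7% in Takara over G&T, 19.5% and 48.7% in NEB over G&T, and 24.3% and 43.7% in NEB over Takara, and list counts near them are no result about a list. Of 20 other mucins 12 had reads in at least 1 cell and most of them few. CD164, a sialomucin of many cell types, was the exception with 189, 373 and 600 CPM, followed by MUC20 and MUC19 with at most 3.26 CPM in any protocol. Of 26 enzymes of O-linked glycosylation 18 had reads, led by GALNT6 (167, 107 and 241 CPM), C1GALT1C1 (39.7, 89.8 and 99.8) and GALNT1 (86.8, 17.6 and 74.2), and in NEB over Takara 3 of 13 tested were higher and 7 lower, where 24.3% and 43.7% of all genes were. Of 28 genes that build or remodel the GPI anchor 27 had reads, led by PIGT (137, 556 and 45.5 CPM), GPAA1 (128, 354 and 9.03) and DPM2 (121, 289 and 30.3). In Takara over G&T 14 of 27 were higher and 2 lower (all genes 17% and 25.7%), and in NEB over Takara 5 were higher and 14 lower (24.3% and 43.7%).

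Of 9 other secretoglobins 1 had reads, SCGB3A1, with 3 in G&T and 1 in Takara. Of 16 genes that bind, sense or degrade retinoids 13 had reads. RBP7, a cellular retinol binding protein, had 177, 60.8 and 22.95 CPM, and the receptor RXRA 24.5, 12.1 and 12.4. The receptor RARG had 133 reads in G&T and 1083 in Takara, and 0 in NEB. CRABP1, the paralog of CRABP2, had 13 reads in G&T and 9 in Takara, and NEB had 0. In NEB over G&T 0 of 6 tested retinoid genes were higher and 5 lower, against 19.5% and 48.7% of all genes. Of 18 other secretory and lactation genes 12 had reads. TFF3, a secreted trefoil peptide, had 4398, 1624 and 222 CPM, PRLR, the prolactin receptor, 1784, 575 and 1643, and STC2, a secreted stanniocalcin, 449, 932 and 170.4. In NEB over Takara 1 of 7 tested was higher and 5 lower, against 24.3% and 43.7% of all genes. Of the milk protein genes, CSN3 had 3 reads in 2 G&T cells, and CSN1S1, CSN2, LALBA and LTF had 0.

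For each gene with reads in at least 22 cells, the genes most like it across cells were ranked by the mean of the Spearman coefficients of the 3 protocols (n = 11 cells each) among the 7203 other genes that had a coefficient in each protocol, out of 7342 genes with reads in at least 22 cells. AGR3 was most like MALAT1, a long noncoding RNA (mean 0.70, from 0.66, 0.65 and 0.79 in G&T, Takara and NEB), followed by UTP18 (0.63) and HDLBP (0.62). AGR2 itself came at place 17 of 7203 for AGR3, and AGR3 at place 19 for AGR2. AGR2 was most like C2orf74-DT (0.65), BLOC1S5 (0.62) and CDR2L (0.60), MUC1 most like PDCD2 (0.63), TMEM41B (0.62) and SRSF9 (0.61), CRABP2 most like CA12 (0.64), TFAP2C (0.63) and NHERF1 (0.62), and CD24 most like PGM2 (0.60), TAF9B (0.60) and SNX13 (0.59). CD24 came at place 7106 of 7203 for AGR2. With this many candidates and 11 cells, coefficients of this size are a description of these cells only.

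The levels of the genes showed no common relation to the quality of a cell. Spearman's rho with the genes detected lay between -0.23 and 0.32 for MUC1, AGR2, AGR3, CRABP2 and CD24 in the 3 protocols. For the same genes, rho with the percentage of ERCC reads lay between -0.26 (AGR3 in NEB) and 0.51 (CRABP2 in Takara). For AZGP1 in G&T and Takara, rho was -0.10 and 0.17 with the genes detected and -0.39 and 0.06 with the percentage of ERCC reads. With the percentage of mitochondrial reads, MUC1 had a rho of -0.71, 0.15 and -0.51 in G&T, Takara and NEB, and AGR2 -0.49, 0.22 and 0.33.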

How the data were processed

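Single T47D cells were prepared with 3 protocols, 13 with G&T, 13 with Takara and 14 with NEB. The authors used Trim Galore for trimming and STAR for alignment to GRCh38, and they deposited raw read counts per gene, with no normalization and no filter on cells. Per the file headers each table has 1 column per cell. STAR counts uniquely mapped reads and sets aside those that overlap several genes, which here were a median of 5.67% to 10.6% of reads per protocol. The annotation release and the strand setting are not given in the sources used here.

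Cells were kept with at least 1000 genes, 600000 reads on genes and ERCC spike-ins, at most 30% mitochondrial and at most 25% ERCC reads. Left out were G&T C2 and F1, Takara C2 and F1, and NEB B2, F1 and F2. Counts were summed per protocol and divided by the reads on genes (CPM), and 1 CPM was added before ratios. Genes with at least 1 CPM in either protocol were tested against a limit of 2-fold. Intervals are exact Poisson and exact binomial (95%), and 3 reads served as the limit for a count of 0. Coordinates, exon lengths and windows were those of GENCODE release 44 (GRCh38; 56104 of the listed genes are in it), and promoters from RefSeq (GRCh38.p14). No 2 cells of a protocol held nearly the same counts. The ratio and thinning steps were tested on simulated data. Alternatives covered denominators, TMM scaling (edgeR 4.0.16), pseudocounts, filters, pooling, detection limits, gene length, removed cells and each cell left out in turn. Python 3.11.15, numpy 2.4.6, pandas 2.3.3, scipy 1.17.1 and R 4.3.3 were used.

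The genes and lists were chosen with earlier results of these data known. Named are all 9 genes, the 3 genes of each list with the highest mean of the pooled levels, genes that could share reads, and the 3 genes most like each gene across cells, while other marker, list and pseudogene names were added after their values were seen.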

Additional observations from a re-analysis of the deposited data

Results flagged for a closer look

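Signal of the 9 genes was also found in cells that the comparisons leave out. The removed cells G&T C2 and F1 had 5334 and 6780 reads on these genes, and NEB B2 and F2 had 1559 and 1601, whereas the removed cells Takara C2, Takara F1 and NEB F1, in which 91.3%, 96.7% and 99.7% of reads were ERCC reads, had 1 or 2. G&T cell C2, removed for 33.7% mitochondrial reads, had 2211 PIP reads (3134 CPM), where the highest kept G&T cell had 57.2 CPM, and 525 CRABP2 reads (744 CPM), where the highest kept G&T cell had 733 CPM. It had 2 MUC1 reads and 1 AZGP1 read. With every deposited cell the pooled PIP level in G&T was 213 CPM, and the log2 ratio was -4.64 in Takara over G&T and -5.41 in NEB over G&T. The part of RNA quality in these values was not tested.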

How the results depend on the processing

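No paired analysis was possible because wells only share names across protocols and no result comes from a test. The counts of genes at least 2-fold higher or lower were within 1.5 times the main ones with other pseudocounts, filters, pools of cells, TMM scaling and mitochondrial reads left out. Equal counts did not always mean the same genes, since with the median of cells AZGP1 (-0.31) was no longer lower in Takara over G&T and MUC1 (-1.12) was. The exceptions were the spike-in scales. With ERCC reads in the denominator (AGR3 at 0.97) 0 genes were higher in NEB over Takara, and relative to ERCC reads 2 were higher and 1 lower in Takara over G&T, and 0 higher and 7 lower in NEB over Takara. That scale moved the median log2 ratio of all genes by 1.09, -2.05 and -3.28 (Takara over G&T, NEB over G&T, NEB over Takara), and reversed AGR3 in NEB over Takara to -2.62. With single cells left out, the genes at least 2-fold higher numbered 0 to 1 in each comparison, with a change without G&T cell C1 (PIP) and NEB cell B1 (AGR3). The genes detected per Takara cell numbered 5.38 with every deposited cell, which adds 2 wells of mainly ERCC reads. Ratios of single genes moved by more than their counting interval in 73 cases and by less in 151, with 5 of the 73 at a pseudocount of 10 CPM, and the cause was not tested. At equal depth the genes detected per cell numbered 6.11, 6.09 and 4.55 in G&T, Takara and NEB.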
